A study of Rattus norvegicus with 6 samples.

Results

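The 9 genes described here make, load, take up or degrade GABA (γ-aminobutyric acid) and taurine, and their expression was followed in the pituitary of male rats born to nicotine-treated dams. They were found by their symbols among the 33294 gene symbols of the count tables. All 9 had at least 1 count, and 8 of them were among the 17292 genes with enough reads to be tested. Slc6a6, Slc6a11 and Slc32a1 were selected on their change in these same libraries, because the study names them for it, so their difference between the groups is given as a description without a test. The other 6 genes were added by function, with earlier results of these data known.

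Pituitary RNA was sequenced from 3 male Sprague-Dawley rats whose dams received nicotine (6 mg/kg per day) through a 28-day osmotic pump under the skin, and from 3 male rats whose dams received saline from the same kind of pump. All rats were 11 weeks old, and each gave 1 library. The pump was placed during pregnancy, so nicotine here means exposure through the dam. Whether the rats of a group came from different litters is not given in the sources used here, and the p-values measure only the spread between these rats.

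GABA is the main inhibitory transmitter of the brain. In the pituitary it reaches the gland from hypothalamic neurons and is also made by endocrine cells, where it acts on hormone release through GABA receptors. Glutamate decarboxylases make it, a vesicular transporter loads it, Slc6 transporters of the plasma membrane recover it, and a mitochondrial transaminase and dehydrogenase break it down to succinate. Taurine is an amino sulfonic acid made from cysteine. It is abundant in the glial cells of the posterior lobe, the pituicytes, which release it when the osmolarity of the blood falls.

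The start regions of the 3 transporter genes named by the study are shown because their levels were higher together after nicotine. Each run holds 250 bases before and 50 bases after the start of the gene, 5′ to 3′, from RefSeq on the GRCr8 assembly. Capitals mark the GC box GGGCGG or its reverse complement CCGCCC.
Slc6a6 (GRCr8 chr4:125752252-125752551, plus strand): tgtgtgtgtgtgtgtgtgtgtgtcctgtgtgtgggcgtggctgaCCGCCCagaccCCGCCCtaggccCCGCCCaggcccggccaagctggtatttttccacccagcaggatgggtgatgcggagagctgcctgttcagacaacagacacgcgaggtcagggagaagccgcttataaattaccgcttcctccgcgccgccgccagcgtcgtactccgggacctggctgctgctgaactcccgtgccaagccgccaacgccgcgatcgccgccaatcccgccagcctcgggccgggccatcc
Slc6a11 (GRCr8 chr4:148853307-148853606, plus strand): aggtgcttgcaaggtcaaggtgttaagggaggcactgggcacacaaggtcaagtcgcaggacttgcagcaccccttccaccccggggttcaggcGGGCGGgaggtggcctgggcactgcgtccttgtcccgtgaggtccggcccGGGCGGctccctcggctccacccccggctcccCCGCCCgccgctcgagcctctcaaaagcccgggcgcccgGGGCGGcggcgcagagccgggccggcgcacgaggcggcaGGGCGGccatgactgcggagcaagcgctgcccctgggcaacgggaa
Slc32a1 (GRCr8 chr3:167686995-167687294, plus strand): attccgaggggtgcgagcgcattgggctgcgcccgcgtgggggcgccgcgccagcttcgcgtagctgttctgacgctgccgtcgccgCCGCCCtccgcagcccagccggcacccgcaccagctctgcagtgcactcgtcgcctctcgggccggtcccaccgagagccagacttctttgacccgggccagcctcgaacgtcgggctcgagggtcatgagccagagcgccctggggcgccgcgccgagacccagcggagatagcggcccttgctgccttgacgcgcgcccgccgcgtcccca

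The GC box, searched on both strands, occurred 3 times in Slc6a6, 5 times in Slc6a11 and once in Slc32a1. Of the 7 member genes with an entry in the promoter table it was in 5, and it was in 33.1% of all 33469 start regions. TATAAA was in Slc6a6 and Gad1 (14.2% of all regions), TGACG, the core of the cAMP response element, in Slc32a1 (21.2%), and the E-box CANNTG in Gad1 (72.1%). TGGAAA, the core of the tonicity element, was in Slc6a6, Gad2 and Aldh5a1 (22.7%), and CCAAT was in Slc32a1, Slc6a6 and Gad2 (37.5%). In Gad2 a match to TGGAAA shares bases with the match to CCAAT, and another match to TGGAAA does not. The 7 regions held 24 to 42 CpG dinucleotides each, against a median of 7 over all regions. A match is a description of the sequence and no binding was measured. In the gene order of GRCr8 the next coding gene after Slc6a13 is Slc6a12, which also encodes a GABA transporter.

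Libraries held 28318383 to 85977002 counts, and the median total was 1.70 times higher in the nicotine group. The read numbers printed by the study run the other way. Taken in order, each of its nicotine libraries has fewer reads than the control library. Each nicotine library here also holds more counts than the study gives reads for it. With the group names exchanged, every library here holds fewer counts than the reads printed for that place. Whether the names were exchanged in either source was not tested. Groups here follow the labels of the deposited libraries, and every direction given rests on them. The conflict was not resolved. Levels are CPM, read counts scaled by library total and TMM factor. On this scale the same gene can be compared between libraries, but different genes cannot, since gene length is not removed. The anterior lobe was present in every library, with Gh1 (growth hormone) between 52429 and 115788 CPM and 8 of its 11 marker genes with a positive log2 fold change, and, since the labels describe RNA extraction for testis alone, germ cell genes of the testis were also read and 5 of them together reached at most 0.0849 CPM. Marker transcripts of other parts of the gland differed between libraries, and whether the parts were evenly sampled was not tested. The posterior lobe transcripts Avp and Oxt, which travel in neurosecretory axons, summed to 68.4, 203 and 65.3 CPM in nicotine replicates 1, 2 and 3 and to 63.5, 19.6 and 5.39 CPM in control replicates 1, 2 and 3. The melanotroph list of the intermediate lobe (Pomc, Pax7, Pcsk2, Tbx19), nearly all of it Pomc, summed to 20681 to 46584 CPM after nicotine and 36287 to 72273 CPM in controls. The sum was lowest in nicotine replicate 2. There Tbx19 was at 85.4 CPM, the highest of the 6 libraries, and Pax7 was at 47.9 CPM, under control replicate 3 alone. The meningeal and fibroblast list of 10 genes summed to 602, 261 and 737 CPM after nicotine and to 849, 994 and 845 CPM in controls. Nicotine replicate 2 thus stood at one end of these sums and control replicate 3 at the other end for the posterior lobe. Results that rest on these libraries are also given without them. In bulk tissue, fewer cells of a type and less RNA per cell cannot be told apart.

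The genes of GABA synthesis had few reads in the gland. Gad1 and Gad2 encode the larger and the smaller form of glutamate decarboxylase, the enzymes that turn glutamate into GABA. In nicotine replicates 1, 2 and 3, Gad1 was read 5, 29 and 14 times, and in control replicates 1, 2 and 3 it was read 11, 12 and 15 times, or 0.106, 0.315 and 0.231 CPM against 0.406, 0.227 and 0.396 CPM. The groups overlapped, and the 95% Poisson interval of the lowest count ran from 1.62 to 11.7, which covers counting error only. Its log2 fold change was -0.48 ± 0.53 (SE), with an edgeR adjusted p = 0.876. Leaving out nicotine replicate 2 gave -0.89 and leaving out nicotine replicate 1 gave -0.23, so the size of this difference was not fixed at this depth. Gad2 had 1 count in nicotine replicate 2 and 0 counts in the other 5 libraries, which allows at most 0.0496 to 0.111 CPM per library. It was not tested.

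Most markers of forebrain GABA neurons were also low. Of the 9 genes listed for hypothalamic GABA neurons, 7 had a mean under 1 CPM. Dlx1, Dlx2, Dlx5 and Dlx6 were at 0 to 0.284 CPM in every library. Npy and Rbfox3 were higher and made up most of the summed list. The sum lay between 10.8 and 23.1 CPM after nicotine and between 11.2 and 15.1 CPM in controls. The 4 genes tested had positive log2 fold changes, with a median of 0.37, and 0 were called in edgeR. The part of these neurons in the values of Gad1 or Slc32a1 was not tested.

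Slc32a1 encodes the vesicular inhibitory amino acid transporter, which loads GABA and glycine into synaptic vesicles. Its levels were 3.56, 6.08 and 4.41 CPM in nicotine replicates 1, 2 and 3 and 2.40, 2.97 and 2.46 CPM in control replicates 1, 2 and 3. The lowest nicotine value exceeded the highest control value, and nicotine replicate 2 was the highest of all. The mean was 4.68 ± 1.28 CPM (SD, n = 3) against 2.61 ± 0.314 CPM (SD, n = 3), 1.80-fold (log2 fold change 0.84 ± 0.27, SE). Without nicotine replicate 2 the log2 fold change was 0.59. These levels rest on 65 to 560 counts per library.

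**Figure D1:**
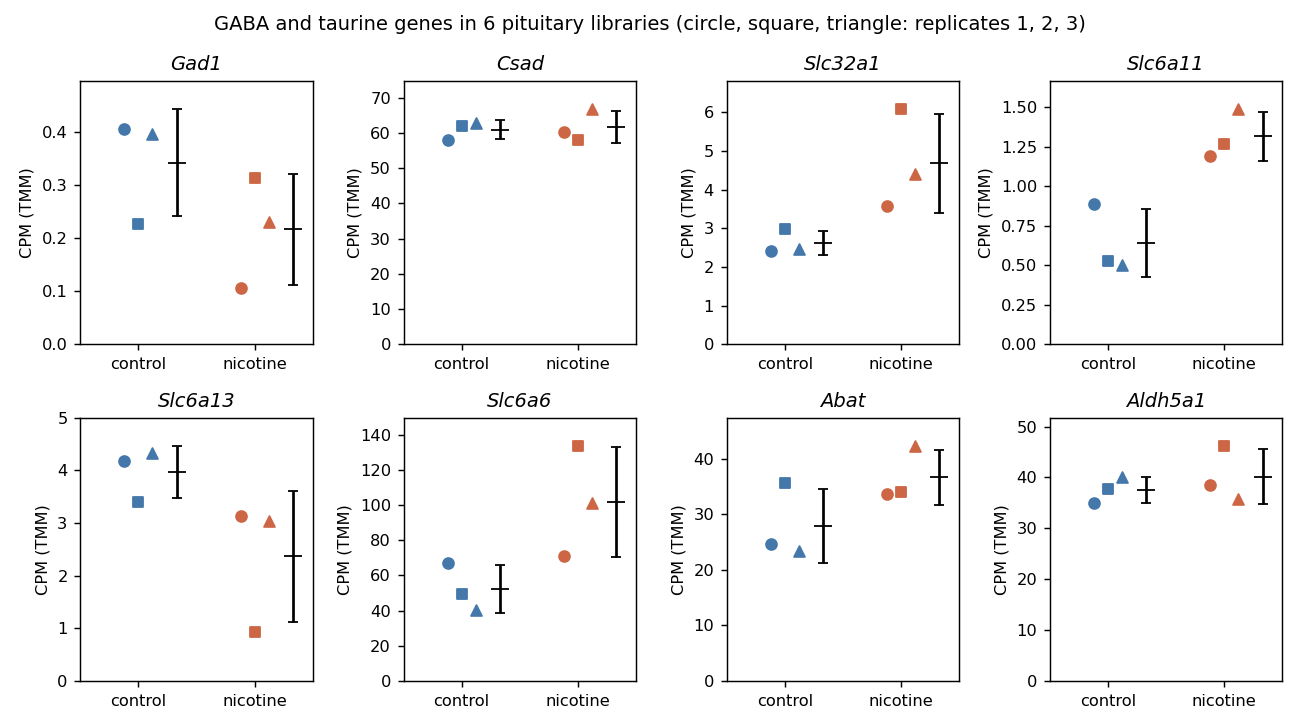
Level of each of the 8 genes tested in every library, in CPM after TMM scaling (vertical axes from 0, one scale per gene). Coloured points are single rats, black marks are the mean ± SD of 3 rats. Slc32a1, Slc6a11 and Slc6a6 have all nicotine points above the control points, Slc6a13 has all of them below, and the points of Csad lie between 57.9 and 66.8 CPM in both groups.

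The plasma membrane transporters differed in the direction of their values. Slc6a11 encodes GAT-3, the GABA transporter of astrocytes and other glia. It was at 1.19, 1.27 and 1.49 CPM in nicotine replicates 1, 2 and 3 and at 0.886, 0.530 and 0.502 CPM in control replicates 1, 2 and 3. The nicotine libraries lay close to each other and above all controls, of which control replicate 1 was the highest. The ratio was 2.14-fold (log2 fold change 1.10 ± 0.35, SE), on 56 to 117 counts after nicotine and 19 to 28 counts in controls. Leaving out 1 library at a time gave log2 fold changes from 0.96 to 1.35.

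Slc6a6 encodes TauT, which takes up taurine and also β-alanine. It was at 70.8, 134 and 101 CPM in nicotine replicates 1, 2 and 3 and at 67.1, 49.2 and 40.6 CPM in control replicates 1, 2 and 3. The groups did not overlap, but nicotine replicate 1 and control replicate 1 lay closer to each other than to the next rat of their own group. The ratio of the groups was 1.95-fold (log2 fold change 0.96 ± 0.25, SE), with a range of 0.71 without nicotine replicate 2 to 1.18 without control replicate 1.

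Slc6a13 encodes GAT-2, a transporter of GABA, taurine and β-alanine found in the leptomeninges, liver and kidney. Its values lay the other way, with 3.14, 0.934 and 3.04 CPM in nicotine replicates 1, 2 and 3 and 4.17, 3.40 and 4.33 CPM in control replicates 1, 2 and 3. The highest nicotine value was under the lowest control value, and nicotine replicate 2 was far under the rest. The mean was 2.37 ± 1.25 CPM (SD, n = 3) against 3.97 ± 0.496 CPM (SD, n = 3), a log2 fold change of -0.77 ± 0.40 (SE), with an edgeR adjusted p = 0.813. Without nicotine replicate 2 the log2 fold change was -0.36.

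Markers of other cells in the gland also differed between the groups in both directions. Among the 81 marker genes listed, the libraries took the same order as for Slc6a6 in 3, picked out here for that reason. They were the pituicyte markers Nkx2-1 and Col25a1 and the gonadotroph gene Gnrhr, the receptor for gonadotropin-releasing hormone. The match was therefore not particular to the posterior lobe. A gene in this order shares the group difference of Slc6a6 by construction. The share of all genes with this order was not counted, so nothing is read from the number 3. Nkx2-1, a transcription factor of the ventral forebrain, was at 2.44, 4.70 and 3.16 CPM in nicotine replicates 1, 2 and 3 and at 2.07, 1.36 and 0.185 CPM in control replicates 1, 2 and 3. Col25a1, a membrane collagen, was at 6.30, 14.2 and 8.94 CPM against 5.28, 3.40 and 0.925 CPM. Gnrhr was at 34.2, 106 and 34.6 CPM against 30.1, 25.3 and 21.0 CPM. Of the 6 pituicyte genes 5 had a positive log2 fold change, with a median of 1.35, and 0 were called in edgeR. Gfap, the glial filament gene, had a log2 fold change of -0.66, and for Rax and Lhx2 control replicate 1 was above nicotine replicate 1. Their summed level, most of it Scn7a, lay between 71.5 and 143 CPM after nicotine and between 56.1 and 94.1 CPM in controls. Without control replicate 3, which had the lowest levels of Nkx2-1, Rax, Col25a1 and Lhx2, the log2 fold change was 0.82 for Slc6a6, 0.97 for Slc6a11 and 0.80 for Slc32a1. None of the pituicyte markers was at 0 in any library. Other cell types differed alongside as well. Lhb, the luteinizing hormone subunit of gonadotrophs, was at 216, 820 and 223 CPM in nicotine replicates 1, 2 and 3 and at 154, 75.6 and 125 CPM in control replicates 1, 2 and 3, without overlap. All 6 endothelial genes (median log2 fold change 0.42) and all 6 genes of smooth muscle and pericytes (median 1.11) had positive values, and all 9 blood and immune genes had negative ones (median -0.98). Of these, 0 were called in edgeR, and DESeq2 called Acta2, smooth muscle actin. The summed level was 169 to 277 CPM after nicotine and 139 to 185 CPM in controls for endothelium. For smooth muscle it was 48.2 to 204 CPM and 41.2 to 58.2 CPM, with Tagln alone at 138 CPM in nicotine replicate 3. For blood and immune cells it was 2531 to 7794 CPM and 6651 to 14089 CPM, nearly all of it the globin genes Hba-a1 and Hbb. S100a8 and S100a9 of that list were lowest in control replicate 2, at 1.02 and 3.92 CPM. The part of the posterior lobe, the gonadotrophs or these other cells in the levels of the transporters was not tested.

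The values of Slc6a13 lay lower after nicotine, like those of the meningeal list, but did not follow the summed list among the controls. There Slc6a13 was lowest in control replicate 2, at 3.40 CPM, where the summed list was highest, at 994 CPM. Single genes of the list were divided. Among the controls, Ptgds and Slc22a8 were also lowest in control replicate 2. Dcn, Lum, Igf2, Foxc1, Cldn11 and Slc47a1 were highest there, and Slc22a6 and Col1a1 lay between. All 10 genes of that list had a negative log2 fold change, with a median of -0.83. Of these, 0 were called in edgeR and 1, Cldn11, in DESeq2. Dcn, a matrix proteoglycan of fibroblasts, was at 233, 101 and 246 CPM in nicotine replicates 1, 2 and 3 and at 339, 430 and 284 CPM in control replicates 1, 2 and 3. Cldn11, a tight junction gene of the arachnoid barrier, was at 36.1, 28.9 and 55.8 CPM against 70.1, 126 and 103 CPM. As for Slc6a13, the lowest library was nicotine replicate 2 for both genes and no nicotine library reached a control library. Other genes of the list, such as Ptgds and Slc47a1, had overlapping groups. The part of meningeal tissue in the level of Slc6a13 was not tested.

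**Figure D2:**
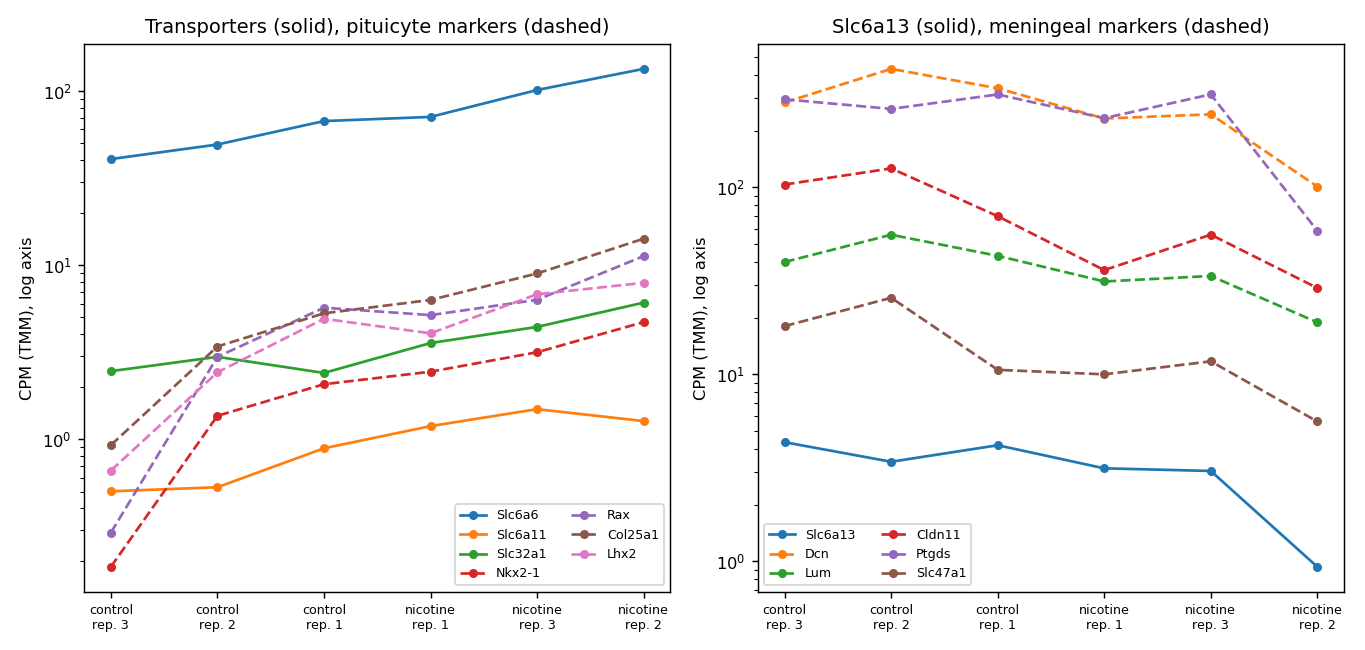
CPM after TMM scaling (log axes) in the 6 libraries, placed from left to right by their level of Slc6a6. Left, Slc6a6, Slc6a11 and Slc32a1 (solid) with 4 of the 6 pituicyte markers (dashed). Of these, Nkx2-1 and Col25a1 take the order of Slc6a6 from control replicate 3 to nicotine replicate 2, and Rax and Lhx2 do not. The pituicyte markers Gfap and Scn7a, which do not take this order, are not drawn. Nor is the gonadotroph gene Gnrhr, which does. Right, Slc6a13 (solid) with 5 meningeal markers (dashed), all lowest in nicotine replicate 2.

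Both enzymes of GABA breakdown had overlapping groups. Abat encodes GABA transaminase, which removes the amino group of GABA, and Aldh5a1 encodes succinate semialdehyde dehydrogenase, which finishes the path to succinate. Abat was at 33.7, 33.95 and 42.3 CPM in nicotine replicates 1, 2 and 3 and at 24.7, 35.6 and 23.5 CPM in control replicates 1, 2 and 3. Control replicate 2 lay within the nicotine range, so the groups overlapped, and the log2 fold change was 0.39 ± 0.20 (SE), with an edgeR adjusted p = 0.813. It was 0.61 without that library. Aldh5a1 was at 38.5, 46.2 and 35.7 CPM against 34.9, 37.8 and 40.05 CPM, with overlapping groups. Its log2 fold change was 0.09 ± 0.16 (SE), with an edgeR adjusted p = 0.920, and turned to -0.029 without nicotine replicate 2.

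Csad encodes cysteine sulfinic acid decarboxylase, which makes the taurine precursor hypotaurine. It was at 60.2, 57.9 and 66.8 CPM in nicotine replicates 1, 2 and 3 and at 57.9, 61.9 and 63.0 CPM in control replicates 1, 2 and 3. The difference was smaller than the spread between rats (log2 fold change 0.02 ± 0.14 (SE), edgeR adjusted p = 0.986). Csad was also one of the steadiest genes of the gland. Its variation between rats of a group, the biological coefficient of variation fitted by edgeR, was 15.1%, lower than in all but 0.827% of the genes tested, where the median was 20.8%. The same measure was 16.2% for Aldh5a1, 18.7% for Abat, 22.6% for Slc6a6, 25.0% for Slc32a1, 29.7% for Slc6a11, 35.4% for Slc6a13 and 37.4% for Gad1. The enzymes of taurine synthesis and GABA breakdown thus varied less than the median gene, and the transporters and Gad1 more. This measure leaves out counting error, and edgeR draws it toward that of genes at a similar level. In mean level Csad stood above 84.2% of the genes tested and Gad1 above 3.86%, so level and variation were not separated here.

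With the cut-offs of the study (a 1.5-fold change and, over all genes, an adjusted p below 0.1), the quasi-likelihood test of edgeR called none of the members and 0% of the 17292 genes. At an unadjusted p under 0.05 there were 3 members, the 3 genes selected on this contrast, against 6.14% of all genes. With DESeq2, the tool of the study, Slc6a6 was the only member called, and 0.339% of the genes given an adjusted p were. Groups that did not overlap were found for 3 members with the nicotine libraries higher, against 6.12% of all genes, and for 1 with them lower, against 5.14%. Since 3 of these 4 were selected on the same contrast, nothing is read from these counts. The median log2 fold change of the 8 members was 0.24, with 6 positive and 2 negative, and that of all genes tested was 0.007.

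**Figure D3:**
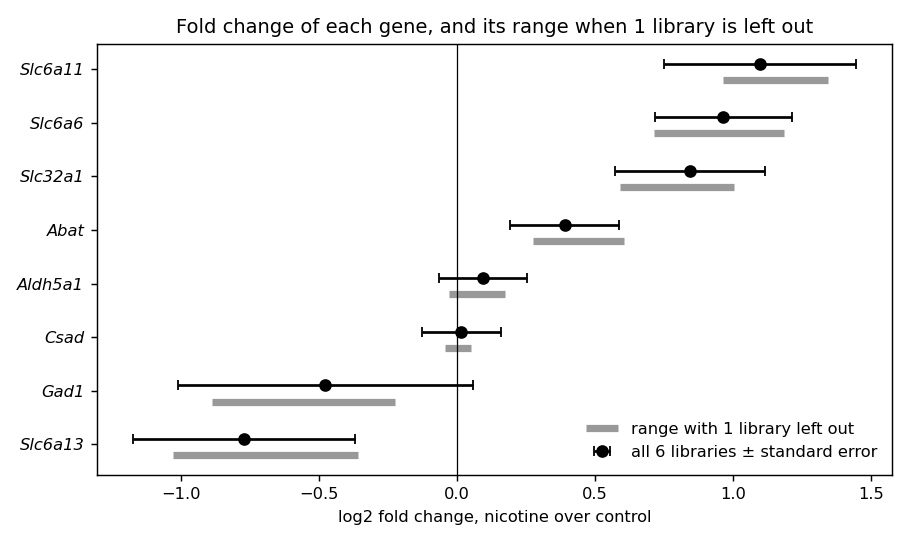
Log2 fold change, nicotine over control, of the 8 genes tested. Points with bars are the estimate from all 6 libraries ± its standard error, and grey bars span the 6 estimates with 1 library left out. The grey bars of Aldh5a1 and Csad cross 0, and that of Slc6a13 runs from -1.03 to -0.36.

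The other genes of these paths showed no common direction. Of 44 listed genes for glutamate supply, other steps of GABA and taurine handling and the rest of the Slc6 family, 39 were tested, 17 with a positive and 22 with a negative log2 fold change and a median of -0.05. None was called in edgeR. At an unadjusted p under 0.05 there were 7 (17.9% of those tested), 4 positive and 3 negative, against 6.14% of all genes. DESeq2 called Slc6a2, which encodes the noradrenaline transporter. It was at 0.912, 1.45 and 1.60 CPM in nicotine replicates 1, 2 and 3 and at 3.36, 4.80 and 3.94 CPM in control replicates 1, 2 and 3, without overlap (log2 fold change -1.60 ± 0.29 (SE), edgeR adjusted p = 0.492). This gene, too, is on a list that the study drew from these libraries, so its call is not independent.

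Among glutamate genes the median log2 fold change was 0.08 over 12 genes. Glul (glutamine synthetase) and Slc1a3 (the glial glutamate transporter) had log2 fold changes of -0.12 and 0.24, with adjusted p of 0.914 and 0.841 in edgeR. Of the 8 further genes of GABA uptake, breakdown and cofactor supply the median was 0.03. Aldh9a1, which makes GABA from γ-aminobutyraldehyde, and Akr7a2, a succinate semialdehyde reductase, had values of -0.04 and 0.10. Slc6a12, the betaine and GABA transporter beside Slc6a13, was looked at after its values were seen. It had at most 0.332 CPM in any library, and its log2 fold change was -0.67 ± 0.59 (SE).

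The 9 further taurine genes tested had a median log2 fold change of -0.13. Cdo1, cysteine dioxygenase, supplies the substrate of Csad and was at 114, 75.8 and 90.4 CPM in nicotine replicates 1, 2 and 3 and at 149, 133 and 105 CPM in control replicates 1, 2 and 3. These ranges overlapped (log2 fold change -0.46 ± 0.20 (SE), edgeR adjusted p = 0.806). Slc36a1, a proton-coupled amino acid transporter that accepts GABA and taurine, was at 13.6, 17.1 and 12.2 CPM against 8.46, 9.87 and 10.2 CPM, without overlap (log2 fold change 0.59 ± 0.20 (SE), edgeR adjusted p = 0.760). Lrrc8a, a subunit of the volume-regulated anion channels through which taurine leaves cells, had overlapping groups and a log2 fold change of 0.49 ± 0.22 (SE), with an edgeR adjusted p = 0.806. Of the other Slc6 transporters 10 were tested, with a median of -0.10. The 3 with the highest mean CPM were Slc6a17 (0.30) and Slc6a8 (0.26), carriers of neutral amino acids and creatine, and Slc6a14 (-0.63), a carrier of neutral and cationic amino acids, with adjusted p of 0.832 to 0.841 in edgeR. Slc6a14 was at 10.4 CPM in nicotine replicate 2 and at 36.7 to 64.1 CPM in the other 5 libraries.

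**Figure D4:**
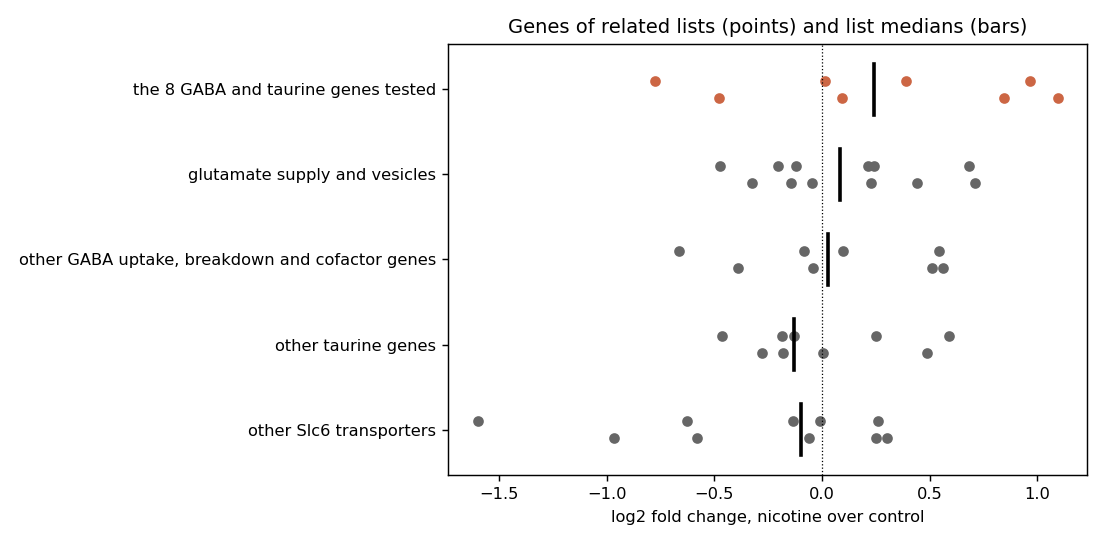
Log2 fold change, nicotine over control, of the 8 GABA and taurine genes (orange points) and of the 39 genes tested from 4 related lists (grey points), with the median of each list as a black bar. The medians lie at 0.24 for the GABA and taurine genes and between -0.13 and 0.08 for the related lists.

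The genes most alike in pattern were taken by Pearson's r of log2 CPM over the 6 libraries, among tested genes with a mean of at least 5 CPM. With 6 points, high values are reached by many genes, and between 47 and 644 genes had r over 0.9 with a given member. For Slc6a6 they were Rap1gap (r = 0.994), a GTPase activator, and Ech1 (r = 0.992), a fatty acid oxidation enzyme. Rap1gap was at 18.2, 37.4 and 25.7 CPM in nicotine replicates 1, 2 and 3 and at 18.4, 11.2 and 10.1 CPM in control replicates 1, 2 and 3. For Slc6a11 they were Igfbp4 (r = 0.980), an IGF binding protein, and LOC680385 (r = 0.980). These r values hold the group difference that Slc6a6, Slc6a11 and Slc32a1 were selected on. With each group centred on its mean, r with Slc6a11 was 0.920 for Igfbp4 and 0.913 for LOC680385. Over all members, the median r was 0.989, and 0.981 after centring. Slc32a1 was closest to Fubp3 (r = 0.996) and Ptprf (r = 0.994), and Slc6a13 to Ankrd10 (r = 0.999) and Xpa (r = 0.998). Among the enzymes the closest genes were Prpf31 (0.984) and Fnbp1 (0.978) for Abat, Zbtb9 (0.996) and Nedd4 (0.996) for Aldh5a1, Zfp385a (0.966) and Fgfr3 (0.965) for Csad, and Tnni1 (0.985) and Fgf13 (0.978) for Gad1.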

How the data were processed

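Pituitary RNA of 3 nicotine-exposed and 3 control rats was converted to stranded libraries and sequenced in paired-end mode. Per the labels, HISAT2 2.1.0 mapped the reads to rn7, and featureCounts assigned them using ncbiRefSeq models from UCSC. The values the authors deposited are whole-number counts per gene symbol, without normalization. The settings for strand, read pairs and multi-mapping reads are not given in the sources used here, so genes that overlap others carry that uncertainty.

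Versions were 4.3.3 for R, 4.0.16 for edgeR, 1.42.0 for DESeq2 and 3.58.1 for limma. Genes were kept by filterByExpr (17292 genes), libraries were scaled by TMM factors (0.957 to 1.07), and nicotine was set against control by quasi-likelihood testing in edgeR (the newer fit, without a covariate), adjusting over all genes tested by Benjamini-Hochberg. Cut-offs follow the study's methods: a 1.5-fold change and adjusted p below 0.1. Standard errors come from the same fit, and log2 CPM used a prior count of 2. The edgeR and DESeq2 fits were also run on simulated counts, and no result here rests on the outcome. Alternatives were DESeq2, other normalizations and filters, voom with sample quality weights, thinning, a replicate block, and leaving out each library. edgeR's older fit was added after seeing the data.

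The members and lists were chosen with earlier results of these data known. Slc6a12 was added for its place beside a member after its values were seen. Named genes are the 9 members, the 3 genes with the highest mean CPM of each related list, genes called by edgeR or DESeq2, the 2 genes most alike each member, and defining markers. A few genes of the lists are counted in them but not reported here by name. Levels were not ordered between genes, since exon lengths were not used here. RefSeq (GRCr8) gave symbols for 9 and start regions for 7 members, and the counts refer to rn7.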

Additional observations from a re-analysis of the deposited data

How the results depend on the processing

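Over all genes, where edgeR called 0, DESeq2 called 61 genes (18 higher, 43 lower), edgeR without a filter 2, and library sizes alone and voom with sample quality weights 1 each. Leaving out 1 library gave 0 to 9 calls, most of them without nicotine replicate 3 (9) and control replicate 2 (4). Among the 9 members DESeq2 called 1, Slc6a6, and all other settings called 0, with 0 to 0 over the fits that left out a library. Among the 44 related genes DESeq2 called 1, Slc6a2, and all other settings called 0, again 0 to 0 with a library left out. The cause of these differences was not tested.

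With the replicate number as a block (replicate block) 2 genes were called, none of them a member or a related gene, and the log2 fold change was 0.95 for Slc6a6, 1.09 for Slc6a11, 0.83 for Slc32a1 and -0.91 for Slc6a13. No pairing of the rats by replicate number is given in the sources used here. Deviations from the group means correlated at 0.03, -0.20 and -0.08 between same-numbered libraries. With so few libraries per group, these values cannot decide whether a pairing exists.

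Of 126 refits of the 8 members, 122 kept the direction and the side of the threshold, 1 passed it (Slc6a6 in DESeq2) and 3 changed sign. These were Aldh5a1 at -0.029 without nicotine replicate 2, and Csad at -0.046 without nicotine replicate 3 and -0.018 without control replicate 1, with ranges over the left-out libraries of -0.029 to 0.17 and -0.046 to 0.049. In edgeR and voom with all libraries the log2 fold change ranged from 0.82 to 1.03 for Slc6a6, 0.83 to 1.15 for Slc6a11, 0.66 to 0.90 for Slc32a1 and -0.91 to -0.55 for Slc6a13. Without nicotine replicate 2 it was -0.36 for Slc6a13. Gad1 was removed by the filter of 10 counts in every library and by the filter after thinning, so neither setting gives a value for it. The order of levels between members was not run, for want of exon lengths. Depth limits what can be said of Gad1 and Gad2.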
